A study of Rattus norvegicus with 6 samples.

Results

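The genes described here are 10 components and targets of the oxygen-sensing pathway in the rat renal cortex: Hif1a, Epas1, Egln1, Egln3, Vegfa, Epo, Bnip3, Adm, Pdk1 and Ankrd37. They were taken as a list of names, and every non-control probe whose accession maps to one of those symbols was used, which gave 18 of the 61657 non-control probes of the array. 9 of the 10 genes had a named probe and 8 of them were bright enough to be tested, among 11804 genes tested in all. Egln1 had no probe named through its accession and is not analysed here, and Epo was too dim to test.

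Each of 6 single-colour Agilent arrays carried total RNA of the renal cortex of 1 male Sprague-Dawley rat. 3 rats had been given tris(2-chloroethyl)phosphate (TCEP), a chlorinated organophosphate flame retardant, at 400 mg/kg/day for 4 weeks, and 3 had been given corn oil, the vehicle, for the same 4 weeks. All were bought at 5 weeks of age. The model has 1 dose and 1 time point in an outbred stock of 1 sex, and the tissue holds all cell types of the cortex. All 3 TCEP arrays lay on one slide with its own scan time and all 3 vehicle arrays on another, so that slide and treatment cannot be told apart. Detection was alike on all 6, with 67.2% to 69.3% of the non-control probes well above background. Of the markers of cortical cells, 10 of 10 for proximal tubule and 9 of 9 for podocytes were bright enough to be tested. So were 5 of 5 inner medulla markers with a named probe and 11804 of the 15284 named genes. These counts therefore do not single out cortex. A level below is the log2 processed signal minus the array's 75th percentile, a difference is TCEP minus vehicle on that log2 scale, and the interval beside a difference is its 95% confidence interval. Levels of different probes cannot be compared with each other.

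As background, cells read oxygen through prolyl hydroxylases of the Egln family, which mark the alpha subunits of the hypoxia-inducible factor (HIF) for capture by the von Hippel-Lindau protein and breakdown. When oxygen is short the subunits persist, pair with Arnt and switch on genes for glycolysis, blood vessel growth, mitochondrial turnover and red cell production. The control lies mainly on the subunits' protein, and the targets are the usual transcript readout. In the adult kidney, erythropoietin is made by interstitial fibroblast-like cells under Epas1, which is also called HIF-2 alpha.

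The mean differences of the 8 tested genes between TCEP-treated and vehicle-treated cortex ran from -0.20 for Epas1 to 0.47 for Egln3. None of the 8 tested genes was called with limma at a Benjamini-Hochberg adjusted p of 0.05, the smallest adjusted value being 0.669 for Epas1, against 0 of all 11804 genes (0%). At an unadjusted threshold of 0.05 there were 0 of the 8, against 983 of 11804 genes (8.33%). 5 of the 8 had a higher mean in TCEP arrays and 3 a lower mean, with a median difference of 0.06, and over all tested genes 52.5% were higher with a median of 0.01. The arrays of the groups did not overlap for 1 of the 8, Epas1, against 15.6% of all tested genes. The count of higher members was 3 of 8, and their median was -0.05, without vehicle replicate 2. These values are of 3 animals a group and cannot show small differences, so an interval is given with each gene.

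**Figure D1:**
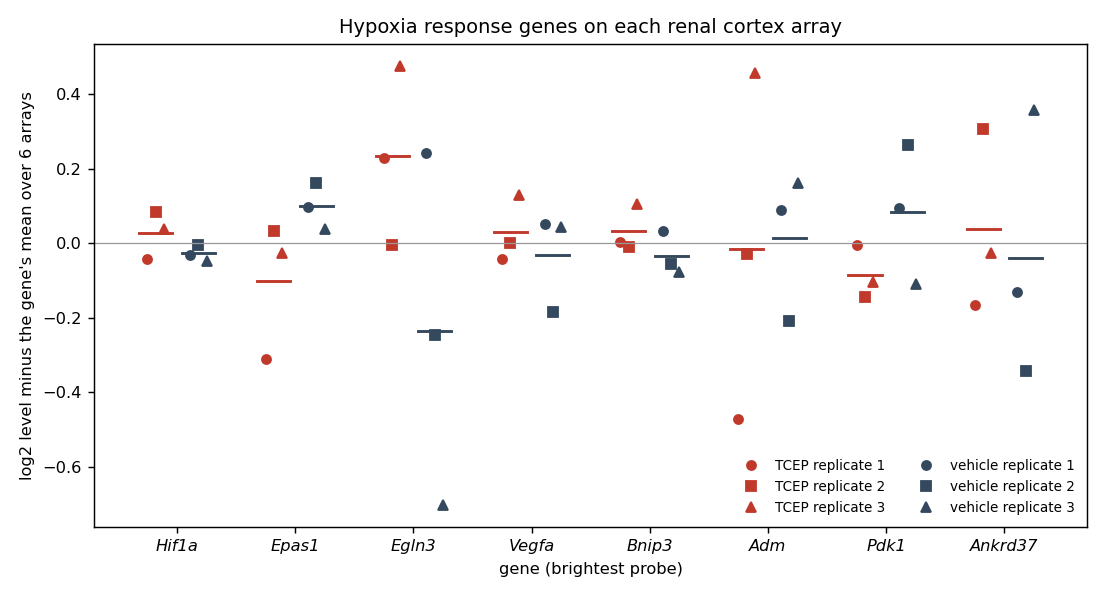
Log2 level of each tested gene on every array, minus the gene's mean over the 6 arrays (vertical axis). Red points are TCEP arrays and dark points vehicle arrays, the marker shape gives the replicate number and the bars are group means. Hif1a and Bnip3 sit in a narrow band, Epas1 is the gene whose groups do not overlap, and Egln3, Adm and Ankrd37 spread most.

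Of the HIF alpha subunits, Hif1a was the steadiest of the tested genes and Epas1 had a lower mean with TCEP. Hif1a, the subunit present in most cells, stood at 2.76, 2.89 and 2.84 in TCEP arrays and at 2.77, 2.80 and 2.76 in vehicle arrays. These values overlap, and the SD over the 6 arrays was 0.05, which is larger than that of only 5.75% of tested genes. The difference was 0.05 (95% confidence interval -0.10 to 0.21, adjusted p = 0.844). Its 2 dimmer probes differed by 0.02 and -0.11, the mean over the 3 probes gave -0.01, and normexp background correction gave 0.15.

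Epas1, the subunit of endothelial and interstitial cells that drives erythropoietin, stood at -0.71, -0.37 and -0.43 in TCEP arrays and at -0.31, -0.24 and -0.36 in vehicle arrays. All TCEP arrays lay below all vehicle arrays, TCEP replicate 1 well below the rest and the other two just under the vehicle range. The difference was -0.20 (-0.46 to 0.06, adjusted p = 0.669), or 0.870 of the vehicle level. Leaving out TCEP replicate 1 made it -0.10. Endothelial markers, taken relative to each gene's mean over the arrays, had a list mean of -0.14, 0.04 and 0.01 in TCEP arrays and of 0.06, -0.08 and 0.11 in vehicle arrays, and 7 of their 10 tested genes had a lower mean with TCEP. TCEP replicate 1 was lowest for Epas1 and for the endothelial list, and also for the podocyte list (-0.27) and the proximal tubule list (-0.14). It was the highest array for the inner medulla list of 5 tested markers, at 0.27, against -0.004 and -0.25 in TCEP replicates 2 and 3. The part of tissue make-up in that array's Epas1 value was not tested. Of the interstitial fibroblast and pericyte markers 8 of 11 had a higher mean with TCEP. The part of these cells in the Epas1 value was not tested. In whole cortex, fewer cells of a type and less RNA per cell cannot be told apart.

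Egln3, the prolyl hydroxylase whose own gene is switched on by HIF, had the largest mean difference and the largest spread of the 8 genes. It stood at -1.0, -1.24 and -0.76 in TCEP arrays and at -0.99, -1.48 and -1.93 in vehicle arrays. Vehicle replicate 1 lay inside the TCEP range, and vehicle replicate 3 was far below all others. The difference was 0.47 (-0.16 to 1.1, adjusted p = 0.684), or 1.38-fold. It was 0.24 without vehicle replicate 3, 0.71 without vehicle replicate 1 and 0.23 when arrays were weighted by their quality, so the size rests on single vehicle animals. The SD over the 6 arrays was 0.42, above that of 92.0% of tested genes.

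The genes with levels most like those of Egln3 across the 6 arrays were Arhgap11a, Gins2 and Prc1, with root mean square distances of 0.12, 0.13 and 0.14 between gene-centred log2 levels. Arhgap11a stood at -3.39, -3.83 and -3.54 in TCEP arrays and at -3.60, -4.02 and -4.41 in vehicle arrays. Prc1, a protein of the central spindle, differed by 0.58 (SE 0.18, adjusted p = 0.553), and by 0.33 with normexp background correction. Gins2, a subunit of the replicative helicase, was well above background on 3 TCEP arrays and on 2 vehicle arrays, so no difference is given. These genes were picked for their likeness to Egln3 among all 11804 tested genes over the same 6 arrays, and the likeness is a description.

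**Figure D2:**
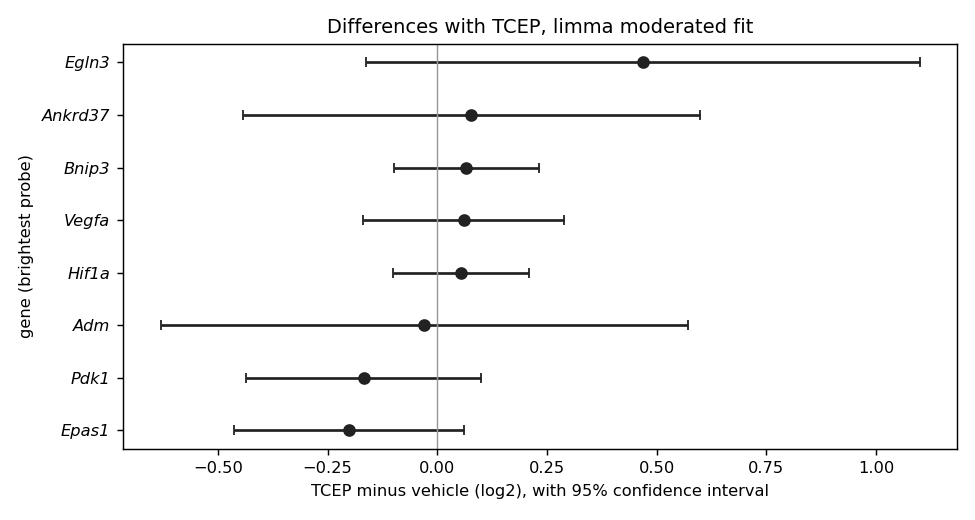
Difference between TCEP and vehicle (horizontal axis, log2) with its 95% confidence interval from limma's moderated fit, for the brightest probe of each tested gene, 3 arrays a group. Every interval includes 0, from Hif1a with -0.10 to 0.21 to Adm with -0.63 to 0.57 and Egln3 with -0.16 to 1.1.

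Among the other genes that build and restrain HIF, 10 of 18 tested had a higher mean with TCEP and 8 a lower one (median 0.02), and 0 were called in either direction. This list holds Hif1a, Epas1 and Egln3. Vhl, which encodes the von Hippel-Lindau protein, stood at 4.30, 4.23 and 4.21 in TCEP arrays and at 4.14, 4.28 and 4.0 in vehicle arrays, a difference of 0.11 (SE 0.09, adjusted p = 0.771) that was 0.04 without vehicle replicate 3 and 0.18 without vehicle replicate 2. Cited4, which binds the coactivators that HIF also uses, was at -2.52, -2.42 and -2.15 in TCEP arrays and at -1.92, -2.14 and -1.95 in vehicle arrays. Its groups did not overlap, with a difference of -0.36 (SE 0.12, adjusted p = 0.559) and -0.33 at its second probe.

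The secreted targets Vegfa and Adm differed by less than the spread between animals. Vegfa, the growth factor that podocytes and tubules supply to the capillaries, was read by 6 probes. At the brightest one it stood at 4.17, 4.22 and 4.35 in TCEP arrays and at 4.27, 4.03 and 4.26 in vehicle arrays, a difference of 0.06 (-0.17 to 0.29, adjusted p = 0.884). Vehicle replicate 2 was the lowest array and the rest lay close together. Leaving it out made the difference -0.02. 2 of the 6 probes had a higher mean with TCEP and 4 a lower one, between -0.12 and 0.07, and the mean over the probes gave -0.04. The probes thus disagreed in sign. Podocyte markers, relative to each gene's mean, had list means of -0.27, -0.04 and 0.06 in TCEP arrays and of 0.20, -0.07 and 0.11 in vehicle arrays (8 of 9 genes lower with TCEP), and their part in the Vegfa values was not tested.

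**Figure D3:**
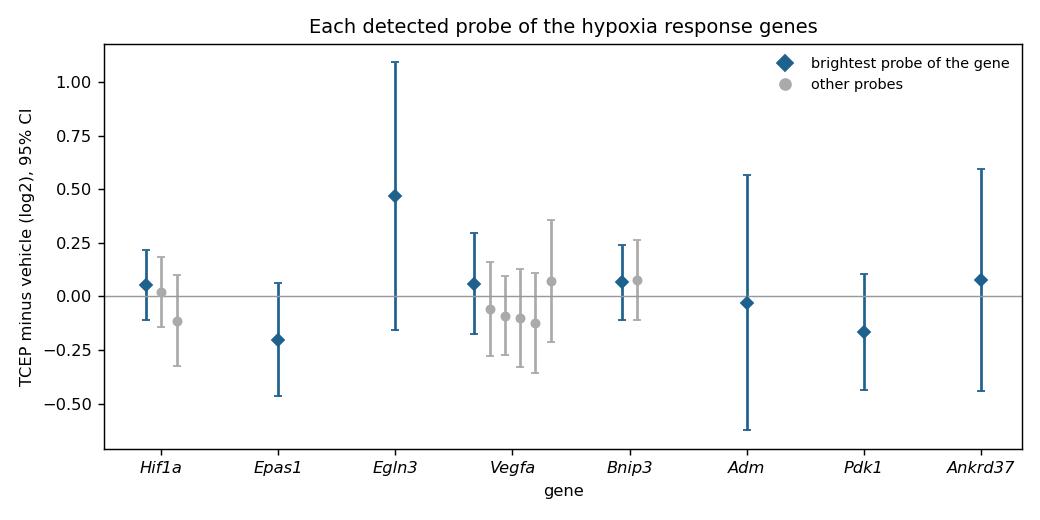
Difference between TCEP and vehicle (vertical axis, log2, with 95% confidence interval) at each of the 16 detected probes, fitted together with all other detected probes. Diamonds are the brightest probe of a gene and circles its other probes, in falling order of brightness. The 6 Vegfa probes lie between -0.12 and 0.07 and the 2 Bnip3 probes at 0.07 and 0.08.

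Of the VEGF ligands and receptors, Vegfa included, 3 of 13 tested genes had a higher mean with TCEP and 10 a lower one (median -0.06), and 0 were called. Without TCEP replicate 1 the counts were 7 higher of 13. Pgf, a ligand of Flt1, stood at -1.03, -0.49 and -1.19 in TCEP arrays and at -1.39, -1.62 and -1.29 in vehicle arrays, without overlap. Its difference of 0.53 (SE 0.20, adjusted p = 0.577) is that of 1 probe, its other probe gave -0.47, and without TCEP replicate 2 it was 0.33. Nrp1, a VEGF co-receptor, differed by -0.21 (SE 0.10, adjusted p = 0.647), and by -0.06 with normexp background correction. Angpt1, which steadies vessels through the receptor Tek, differed by -0.29 and Angpt2, which opposes it, by 0.21, both with overlapping groups (adjusted p = 0.647 and 0.685). Angpt1 was -0.18 without TCEP replicate 1, and Angpt2 was 0.06 with normexp background correction and 0.12 without TCEP replicate 1.

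Adm encodes adrenomedullin, a vasodilator peptide. It stood at 2.45, 2.89 and 3.38 in TCEP arrays and at 3.01, 2.71 and 3.08 in vehicle arrays. The TCEP animals held both the lowest and the highest level, on either side of the vehicle range, with an SD of 0.46 in TCEP arrays and 0.20 in vehicle arrays. The difference was -0.03 (-0.63 to 0.57, adjusted p = 0.983). It turned to 0.20 without TCEP replicate 1, 0.04 without vehicle replicate 3 and 0.01 without scaling between arrays, and was -0.27 without TCEP replicate 3. Of 10 tested adrenomedullin ligands and receptors 5 were higher and 5 lower with TCEP, and 0 were called. Ackr3, a scavenger receptor that takes up adrenomedullin, had the largest difference, at -0.07, 0.26 and 0.66 in TCEP arrays and 1.00, 0.49 and 1.01 in vehicle arrays (-0.55, SE 0.23, adjusted p = 0.602, and -0.29 with normexp background correction).

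Epo, the hormone of red cell production, was at the limit of detection. The brighter of its 2 probes read 17.4, 15.5 and 9.01 intensity units in TCEP arrays and 14.5, 17.7 and 17.9 in vehicle arrays. It was well above background on 0 TCEP arrays and on 1 vehicle array, replicate 2, and the lowest signal well above background on the arrays lay between 15.0 and 18.4. The dimmer probe read between 4.54 and 4.78 in TCEP arrays and between 3.75 and 6.32 in vehicle arrays and was well above background on none. No fold is given, since both groups were at the detection limit, and these readings do not show that the hormone's transcript was absent.

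**Figure D4:**
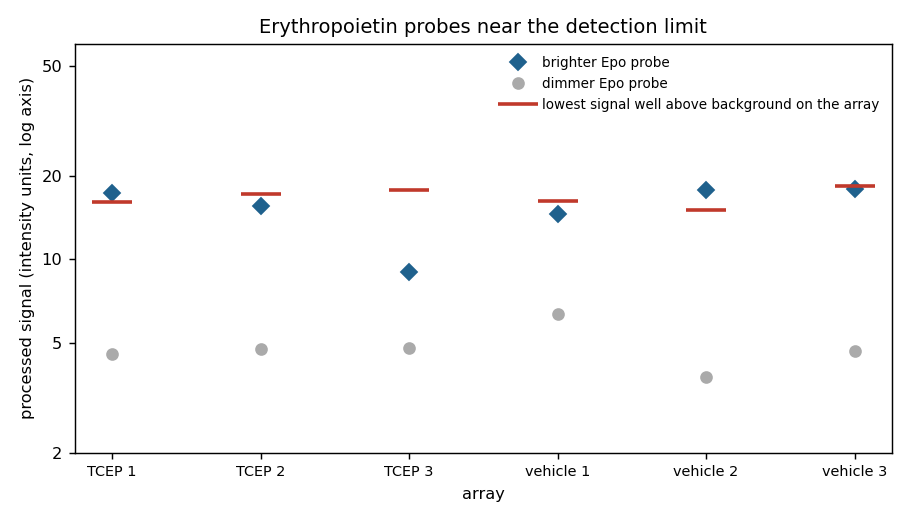
Processed signal of both Epo probes (vertical axis, intensity units, log scale) on each array, TCEP arrays at the left. Red bars give the lowest signal that was well above background on that array, between 15.0 and 18.4. The brighter probe lies near that limit on 5 arrays and at 9.01 on TCEP replicate 3, and the dimmer probe lies under it on all 6.

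Around Epo, the list held the receptor, its signalling genes and the transcription factors Gata2 and Gata3. Of its 9 tested genes 3 were higher and 6 lower with TCEP (median -0.10), with 0 called. Gata2 and Gata3 are among the 6 lower. Epor, the erythropoietin receptor, stood at -3.09, -3.48 and -3.62 in TCEP arrays and at -3.23, -3.32 and -2.75 in vehicle arrays, a difference of -0.30 (SE 0.20, adjusted p = 0.727) that was 0.19 at its second probe and -0.13 without vehicle replicate 3. Gata2, a transcription factor that binds and restrains the Epo promoter, was at -2.90, -2.85 and -2.61 in TCEP arrays and at -2.23, -2.39 and -2.18 in vehicle arrays. All TCEP arrays lay below all vehicle arrays, with a difference of -0.52 (SE 0.11, adjusted p = 0.533), and it was -0.34 with normexp background correction. Gata3, a relative of Gata2 that marks the distal nephron and collecting duct, differed by -0.26 (SE 0.13, adjusted p = 0.647), and 8 of 10 tested markers of the thick ascending limb, distal tubule and collecting duct were lower with TCEP (median -0.27). The part of those segments in the Gata2 and Gata3 values was not tested.

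Markers of interstitial cells and of blood were read in the same cortex RNA. They do not single out the cells that make the hormone, and they do not read cells that answer to it outside the cortex. Of 11 tested markers of interstitial fibroblasts and pericytes 8 were higher with TCEP, 0 of them called. Their median of 0.06 was 0.24 without vehicle replicate 1, 0.14 without TCEP replicate 1, 0.12 without TCEP replicate 2, 0.03 without vehicle replicate 2, 0.02 without vehicle replicate 3 and -0.02 with normexp background correction. Cd248, a surface protein of pericytes and fibroblasts, had the largest difference of the 11. It stood at 0.68, 0.70 and 0.77 in TCEP arrays and at 0.15, 0.16 and 0.60 in vehicle arrays. The difference was 0.42 (SE 0.14, adjusted p = 0.557) without overlap. Pdgfra differed by 0.26 and Nt5e by 0.003. The 3 markers with a lower mean were Cspg4 (-0.28), Dcn (-0.06) and Col3a1 (-0.01). Of 8 tested erythroid and blood markers 7 were lower with TCEP, and 1 of these, Hemgn, was detected on 2 of 3 TCEP arrays. Slc4a1, the marker that was higher, is also in the list of the thick ascending limb, distal tubule and collecting duct. The median of the 8 markers was -0.18. It was -0.03 without vehicle replicate 2, -0.51 without vehicle replicate 3 and -0.13 over the 7 markers detected on all 6 arrays. Alas2, the first enzyme of haem synthesis in red cell precursors, stood at 0.09, 0.17 and 0.40 in TCEP arrays and at 0.69, 0.95 and -0.04 in vehicle arrays (adjusted p = 0.772). The vehicle animals thus lay on both sides of the TCEP range. Relative to each gene's mean, the erythroid list stood at -0.09, -0.03 and -0.19 in TCEP arrays and at 0.16, 0.52 and -0.37 in vehicle arrays. The neutrophil list of 5 tested markers stood at -0.47, 0.34 and -0.39 in TCEP arrays and at 0.23, 1.03 and -0.74 in vehicle arrays. 4 of the 5 were lower with TCEP, and Mmp9, which was higher, was detected on 2 of 3 vehicle arrays. The median of the 5 was -0.26. It was -0.59 over the 4 markers detected on all 6 arrays and -0.08 without vehicle replicate 2. Both the erythroid and the neutrophil list were highest in vehicle replicate 2 and lowest in vehicle replicate 3, and the part of blood in the cortex in these values was not tested. Epb42, a protein of the red cell membrane, was dim and was lower in all TCEP arrays than in any vehicle array. It stood at -5.26, -5.21 and -5.21 in TCEP arrays and at -4.51, -4.43 and -5.10 in vehicle arrays. Its difference was -0.55 (SE 0.18, adjusted p = 0.559), and -0.20 with normexp background correction.

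The targets that act on mitochondria, Bnip3 and Pdk1, are shown with Ankrd37 through the 300 bases around their transcription start, because these 3 windows hold the most matches to the core letters of the hypoxia response element, the site that HIF binds. The windows run from 250 bases before to 50 after the start in RefSeq (GRCr8) and are printed 5′ to 3′ on the gene's strand. Capitals mark ACGTG or GCGTG on either strand, so that CACGT and CACGC are matches on the other strand, and CACGTG is a match on both.
Bnip3 (chr1:203154913-203155212, minus strand): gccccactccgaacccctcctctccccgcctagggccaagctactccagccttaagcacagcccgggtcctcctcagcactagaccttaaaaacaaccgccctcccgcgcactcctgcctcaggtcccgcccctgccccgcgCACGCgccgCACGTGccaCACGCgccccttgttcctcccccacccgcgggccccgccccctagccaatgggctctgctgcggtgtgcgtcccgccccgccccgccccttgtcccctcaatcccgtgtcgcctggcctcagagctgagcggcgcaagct
Pdk1 (chr3:77113264-77113563, plus strand): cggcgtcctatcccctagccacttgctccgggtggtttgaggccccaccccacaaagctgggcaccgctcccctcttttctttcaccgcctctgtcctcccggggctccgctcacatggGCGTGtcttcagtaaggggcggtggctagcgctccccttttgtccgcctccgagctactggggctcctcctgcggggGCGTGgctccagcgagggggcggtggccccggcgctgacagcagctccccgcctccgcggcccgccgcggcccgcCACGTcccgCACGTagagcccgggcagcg
Ankrd37 (chr16:53001257-53001556, plus strand): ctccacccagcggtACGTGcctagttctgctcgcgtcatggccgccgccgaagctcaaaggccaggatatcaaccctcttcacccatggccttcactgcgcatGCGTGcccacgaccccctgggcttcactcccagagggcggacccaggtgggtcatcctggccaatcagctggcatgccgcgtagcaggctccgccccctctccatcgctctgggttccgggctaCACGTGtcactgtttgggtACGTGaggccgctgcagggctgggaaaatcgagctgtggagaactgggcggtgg

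The Bnip3 window holds 4 matches that cluster between 108 and 90 bases before the start. The Pdk1 window holds 4, of which those at 131 and 54 bases before the start read GCGTG. The Ankrd37 window holds 5, the nearest beginning 4 bases before the start. A match was found for 6 of the 10 genes (Hif1a, Egln1, Epo, Bnip3, Pdk1 and Ankrd37), against 44.6% of all genes with a RefSeq window of the same length, and 41.6% of the 33469 windows. With ACGTG alone it was 5 of 10, against 20.9% of genes. The windows of the 10 genes had a G and C content between 44.7% and 84.7%, and its part in these counts was not tested. The windows of Epas1, Egln3, Vegfa and Adm do not contain these letters, which says nothing about sites elsewhere, and a match is not a bound site.

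Bnip3, a protein of the outer mitochondrial membrane that marks mitochondria for removal, was nearly constant over the animals. It stood at 5.06, 5.04 and 5.16 in TCEP arrays and at 5.09, 5.0 and 4.98 in vehicle arrays. The groups overlap, with a difference of 0.07 (-0.10 to 0.23, adjusted p = 0.807), and the second probe gave 0.08. In the list of its relatives and of mitophagy genes 6 of 12 tested were higher and 6 lower with TCEP (median 0.01), with 0 called. Its paralogue Bnip3l, which clears mitochondria from maturing red cells, stood at 4.83, 4.84 and 4.79 in TCEP arrays and at 4.73, 4.68 and 4.67 in vehicle arrays. These did not overlap, but the difference of 0.12 (SE 0.06, adjusted p = 0.644) was -0.04 with normexp background correction.

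Pdk1, a kinase that shuts pyruvate out of mitochondria by blocking pyruvate dehydrogenase, stood at -2.38, -2.52 and -2.48 in TCEP arrays and at -2.28, -2.12 and -2.49 in vehicle arrays. Vehicle replicate 3 lay within the TCEP range and the other two vehicle arrays lay above it. The difference was -0.17 (-0.44 to 0.10, adjusted p = 0.721). It became -0.08 without vehicle replicate 2, -0.26 without vehicle replicate 3 and -0.06 with normexp background correction. In the list of the pyruvate dehydrogenase complex with its kinases and phosphatases 7 of 10 were higher and 3 lower with TCEP (median 0.08, and 0.01 without vehicle replicate 3), with 0 called. Pdk3, another kinase of the family that hypoxia can induce, differed by 0.23 (SE 0.11, adjusted p = 0.650), and Pdk2, a further kinase of the complex, by 0.14 (SE 0.12, adjusted p = 0.771). Pdk3 was 0.13 without TCEP replicate 1 and 0.05 at its second probe. Pdk2 was 0.07 without TCEP replicate 3 and also without vehicle replicate 2. Pdk1 thus had a lower mean with TCEP and Pdk2 and Pdk3 a higher one, and the difference between these differences was not tested.

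Ankrd37, an ankyrin-repeat protein known as a HIF-1 target, varied widely within both groups. It stood at 2.41, 2.88 and 2.55 in TCEP arrays and at 2.44, 2.23 and 2.93 in vehicle arrays. The vehicle animals spanned the whole TCEP range. The difference was 0.08 (-0.44 to 0.60, adjusted p = 0.941). Leaving out vehicle replicate 2 turned it to -0.07 and leaving out TCEP replicate 2 to -0.06, while it was 0.28 when vehicle replicate 3 was left out.

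The wider HIF targets held genes on both sides of 0. Of 22 tested genes of glycolysis and glucose uptake 9 were higher and 13 lower with TCEP (median -0.01), and of 36 other targets 23 were higher and 13 lower (63.9% higher; median 0.08, from 0.02 with normexp background correction to 0.12 without scaling between arrays). 0 genes of either list were called. The groups did not overlap for 2 of the 22 and 6 of the 36, against 15.6% of all tested genes. Hk2, the hexokinase that HIF-1 induces, was dim, at -5.12, -4.86 and -5.02 in TCEP arrays and at -4.33, -4.64 and -4.20 in vehicle arrays. Its difference of -0.61 (SE 0.14, adjusted p = 0.533) was -0.15 with normexp background correction. Tpi1, the triosephosphate isomerase of glycolysis, lay the other way, at 6.30, 6.23 and 6.27 in TCEP arrays and at 6.14, 5.98 and 6.07 in vehicle arrays (0.20, SE 0.07, adjusted p = 0.559, and 0.12 as the mean over its probes).

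Stc1, a secreted regulator of calcium and phosphate, stood at 0.24, -0.39 and -0.15 in TCEP arrays and at -1.18, -0.88 and -0.26 in vehicle arrays, a difference of 0.67 (SE 0.27, adjusted p = 0.600) with overlap at vehicle replicate 3. Ero1a, an oxidase of protein folding, and Car12, a carbonic anhydrase of the cell surface, differed by -0.24 each (SE 0.08 and 0.11, adjusted p = 0.559 and 0.634), and in both genes no TCEP array reached the lowest vehicle array. Car12 was -0.13 without TCEP replicate 1.

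**Figure D5:**
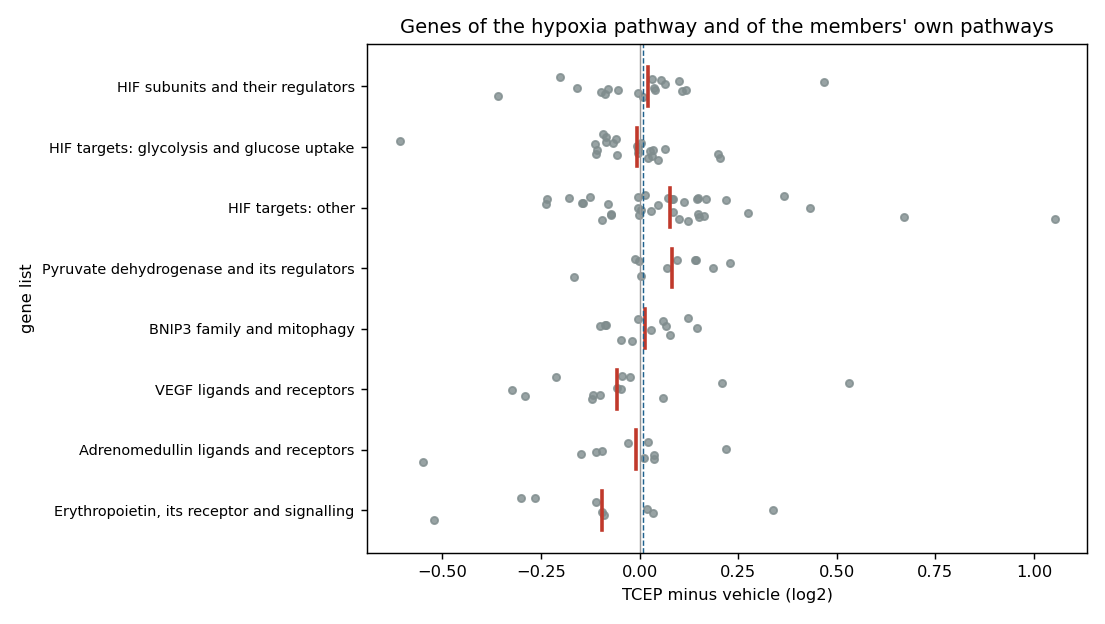
Difference between TCEP and vehicle (horizontal axis, log2) of each tested gene in 8 lists of the hypoxia pathway and of its members' own pathways. Each grey point is a gene, the red bars are list medians, between -0.10 and 0.08, and the dashed line is the median of all tested genes, 0.01. The vertical scatter within a list has no meaning.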

How the data were processed

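Total RNA of the renal cortex was labelled with Cy3 from 0.2 ug and hybridised to single-colour Agilent arrays, per the labels' protocols. The deposited scanner output was written by Agilent Feature Extraction 10.7.1.1, per the file headers, and 10.7 in the submitters' processing notes. The deposited processed signal is a linear intensity, background-subtracted and detrended and not scaled between arrays, and spot and background medians are deposited intensity values too. Flags for detection, saturation and outliers are deposited as other values of 0 or 1. The deposited series matrix holds the same intensity divided by a constant per array that lay within 0.15% of that array's 75th percentile. Depth has no counterpart on arrays, and the number of arrays limits the precision.

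12 probes flagged as outliers were left out. 27460 probes (44.5%) were named through unversioned accessions in RefSeq's GRCr8 table, which gave 15284 genes. The log2 intensity minus the array's 75th percentile was tested. A gene stood as its brightest probe, and was tested if every array of 1 group or of both detected that probe. The moderated two-sided fit of TCEP against vehicle had no covariate and 5.93 degrees of freedom (limma 3.58.1, run under R 4.3.3), with Benjamini-Hochberg adjustment over the 11804 genes. The test was checked on simulated data. Promoter windows were searched and figures drawn with Python 3.11.15 and matplotlib 3.10.9. The members and lists were chosen with earlier results of these data known. Some genes stand in more than 1 list, among them Slc4a1, Tcf21, Kdr, Flt1, Tek and Tie1, so the counts of different lists are not independent. The planned rule for naming genes took all members and up to 4 genes of each list with the smallest p. It also took list genes without overlap and a difference of at least 0.5, and the 3 genes most like the most variable member. Not every gene under the rule is described, and Calb1 of the distal list (-0.58, without overlap) is among those left out. Some that are described, such as Ppfia4 and Cish, lie outside the rule. The genes described are a selection made after their values were seen. A planned comparison of member proteins was not run. The planned normexp correction was run on median spot signals with an offset of 50. Replicate numbers come from the titles, and nothing in the labels says that they mark shared litters or days.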

Additional observations from a re-analysis of the deposited data

How the results depend on the processing

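Limma called 0 genes in the main setting and in all 18 alternatives that could be run, which were 3 other scalings, normexp, 2 filters on dim probes, 2 treatments of a gene's probes, the authors' series matrix, the replicate block, 2 variance models and leaving out each array. Epas1, Egln3, Bnip3 and Pdk1 kept the sign of their difference in 17 of 17 alternatives, not all of which could change it. The 2 filters, the replicate block and the variance trend leave a tested gene's difference as it is. So does the mean over probes for Epas1, Egln3 and Pdk1, which had 1 tested probe each. The authors' series matrix has nearly the same scaling as the main setting. The slide could not be a block, because each slide held 1 group. The number of genes at an unadjusted threshold of 0.05, 983 of 11804, became 384 with spike-in centring and 1568 with normexp, and the cause was not tested. With probes tested singly it was 3416 of 41040 probes. That count is of probes and over more tests, so it cannot be set beside the 983 genes. The members with a higher mean, 5 of 8, became 3 with the mean over probes and 8 of 16 probes when probes were tested singly, and 3 to 6 when an array was left out, where the median ran from -0.046 to 0.092. Signs turned for Hif1a (-0.012) and Vegfa (-0.040) with the mean over probes, which takes in dimmer probes with a negative difference. The sign of Adm turned without scaling (0.012), a setting that shifts the differences of all genes by the same amount. With normexp, signs turned for Bnip3l (-0.037) and for Jak2, the kinase of the erythropoietin receptor (0.0075, against -0.09 in the main setting). The cause of the turns with normexp was not tested. When an array was left out Vegfa ran from -0.018 to 0.10, Adm from -0.27 to 0.20, Ankrd37 from -0.075 to 0.28 and Cish from -0.19 to 1.09. With the replicate block 850 genes lay under the unadjusted threshold. In this balanced design the block leaves every difference as it is, so the median of the members, 0.06, could not change. Same-numbered arrays had correlations of -0.15, -0.10 and 0.23 between their deviations from group means, so the numbers were not taken as pairs, and the block changed no call.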

Other observations

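Some genes of the pathway differed more between animals of one group than between the groups. Both genes below were chosen after their values were seen. Ppfia4, a scaffold protein of the liprin family listed among HIF targets, stood at 2.22, 0.27 and 0.34 in TCEP arrays and at -0.55, 0.70 and -0.48 in vehicle arrays. TCEP replicate 1 stood apart, and without it the difference was 0.41. The difference of 1.05 (SE 0.62, adjusted p = 0.699) was the largest of the 36 tested genes of its list. Cish, an inhibitor of cytokine signalling that STAT5 switches on, stood at 1.14, -0.86 and -0.01 in TCEP arrays and at -0.95, 1.25 and -1.04 in vehicle arrays. One animal of each group, TCEP replicate 1 and vehicle replicate 2, was high. The difference was 0.34 (SE 0.78, adjusted p = 0.927).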
